A study of Rattus norvegicus with 10 samples.

Results

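The macrophages of all nephritic rats given mesenchymal stem cells were compared with those of healthy controls, over every gene in the table. The members were chosen by their labels: the 3 EV-positive (EV+) and 3 EV-negative (EV-) libraries were pooled into an ASC-treated group of 6 and set against 2 control libraries, 8 of the 10 libraries of the series. The other 2 libraries came from nephritic rats without ASCs (GN) and are given beside the results. All cells were splenic macrophages sorted as M2, the anti-inflammatory class, from WKY/NCrj rats, which the study's Methods describe as female and matched for age. Nephritis was induced by injection of TF78, a mouse monoclonal antibody against the glomerular basement membrane. ASCs are mesenchymal stem cells of human adipose tissue, injected into a vein of nephritic rats after their membranes had been labeled with the dye DiD. Macrophages that carried the dye were sorted as EV+ and those without it as EV-, since the dye travels with the extracellular vesicles (EVs) that ASCs release. The control rats received neither antibody nor ASCs. Nephritis, ASC injection and the sort by dye therefore cannot be told apart in ASC-treated against control. Neither the labels nor the Methods say whether same-numbered EV+ and EV- libraries came from the same rat or on which day the cells were taken. Cells were released from the spleen with collagenase and DNase at body temperature, isolated by CD11b/c and then sorted.

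Macrophages of the spleen clear blood-borne particles and old red cells and answer danger signals with cytokines. A first wave of that answer is made of immediate early genes, which encode AP-1 and EGR transcription factors and the phosphatases and RNA-binding proteins that switch them off. These genes need no new protein for their induction and answer many kinds of stimulus. Macrophages also make lipid mediators from arachidonic acid through cyclooxygenase and lipoxygenase enzymes.

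Sequencing gave a table of 9003 genes in CPM, read counts divided by library size, which the authors had scaled between libraries with the TMM method. The genes of the table held between 19270515 and 26617093 reads per library, and 3 reads were worth between 0.113 and 0.153 CPM, a floor that covers counting error only. Of 18 macrophage markers, 15 were measured, of which 5 were called higher and 1 lower in ASC-treated against control (none without control replicate 2). The share called was 40%, against 4.87% of all genes. Csf1r had between 5800.4 and 8155 CPM over all 10 libraries, Adgre1 between 1025 and 1491 CPM and Cd68 between 1163 and 1466 CPM. Cd163 and Mrc1, scavenger receptors often used as markers of M2 macrophages, were low, with at most 1.81 and 1.81 CPM in any library. In these libraries the label M2 rests on the sort and not on these transcripts. The summed level of the macrophage markers was 26684 and 27117 CPM in control and between 30535 and 32890.3 CPM in ASC-treated libraries. The sum weighs abundant members most. Over the 15 members the median log2 fold change was -0.05, with 6 positive and 9 negative. Markers of NK and T cells summed to 497 and 476 CPM in control, to 1554 CPM in EV- replicate 1 and to between 450.3 and 603 CPM in the other 5 ASC-treated libraries. The mean log2(CPM + 1) of these markers, in which each weighs the same, was 4.163, 2.498 and 2.104 in EV- replicates 1, 2 and 3. It was 1.728 and 1.898 in control, 1.615 and 1.868 in GN and between 1.588 and 1.955 in EV+ libraries. By this mean all 3 EV- libraries lay above the others, and by both measures EV- replicate 1 stood furthest from the rest. Some counts of ASC-treated against control are also given without it.

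By limma on log2(CPM + 1), with Benjamini-Hochberg adjustment over all genes, 438 of 9003 genes (4.87%) had an adjusted p under 0.1 in ASC-treated against control, and these are called below. Of them, 210 (2.33% of all genes) were higher and 228 (2.53%) lower in the ASC-treated libraries. These shares are the background for each list count below. The called genes differed by a median log2 fold change of 0.56 upward and -0.53 downward, and 22 rose and 36 fell by more than 2-fold. In 422 of the 438, all 6 ASC-treated values lay on the same side of both control values. The same held wholly above control for 8.14% and wholly below for 8.83% of all genes. With only 2 control libraries, the count rested on both of them. It was 173 without control replicate 1 (72 of them lower) and 120 without control replicate 2 (85 of them lower). It was 272 without EV+ replicate 3, and 373 without EV- replicate 1. In bulk RNA, fewer cells of a type and less RNA per cell cannot be told apart.

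**Figure D1:**
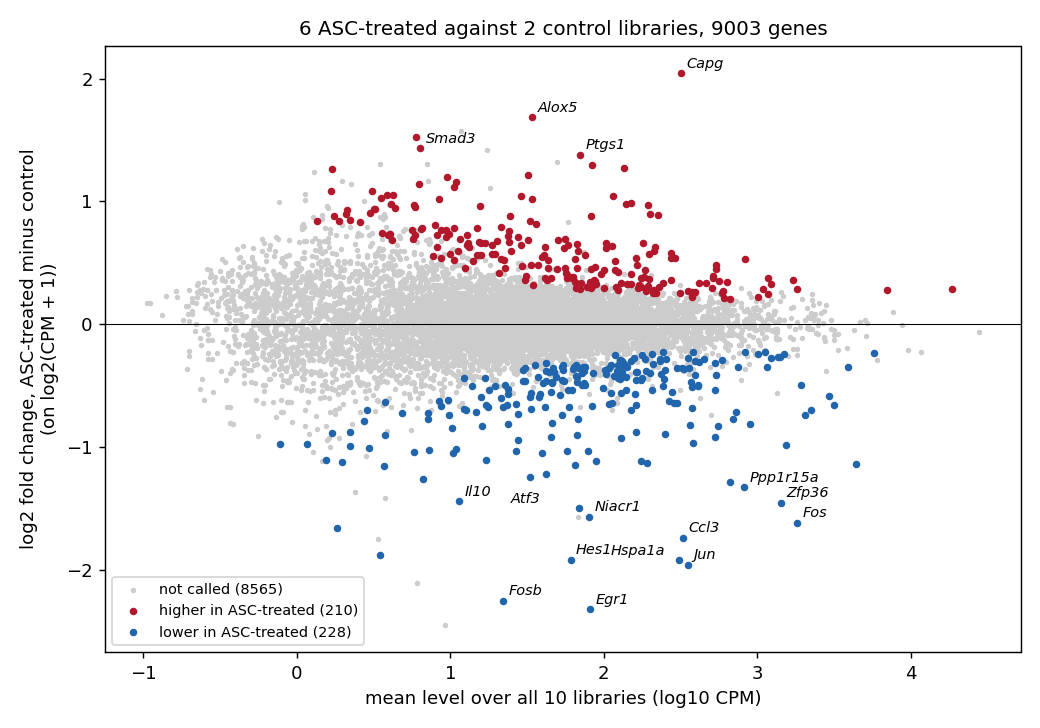
Each point is a gene. The horizontal axis gives its mean level over all 10 libraries (log10 CPM), and the vertical axis its log2 fold change of the 6 ASC-treated against the 2 control libraries on log2(CPM + 1). The 210 genes called higher are red and the 228 called lower are blue. Capg, at 2.04, lies highest among the called genes, and Egr1, at -2.32, lowest.

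Immediate early genes were lower in ASC-treated than in control macrophages. The list was chosen with earlier results of these data known. From these same libraries the study names, among others, Hes1, Fosb, Phlda1 and Zfp36, which are members, as lowered in nephritis. The share of the list beside that of all genes is therefore a description and no independent support. Of the 49 members measured, 31 were called lower and none higher, against 2.53% of all genes called lower. Their median log2 fold change was -0.66, against 0.01 over all genes, and 33 of the 49 lay wholly below both control values (8.83% of all genes). No member had an unadjusted p under 0.05 upward, and neither edgeR's tests nor DESeq2 on the recovered reads called any member higher. Without control replicate 1 the count of lower members was 17, and without EV- replicate 1 it was 30. The summed level of the list was 41954 and 35508 CPM in control, 29711 and 27128 CPM in GN and between 20206 and 23244 CPM in ASC-treated libraries.

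Among the DNA-binding members, Egr1, a zinc-finger factor of the first transcriptional answer to growth signals, had 253 and 132 CPM in control replicates 1 and 2. Over the 6 ASC-treated libraries its lowest, median and highest values were 20.4, 37.3 and 52.1 CPM, the order in which the ASC-treated group is given throughout. The 2 control values were far apart (log2 fold change -2.32, SE 0.27, adjusted p = 0.000187 by limma). Egr1 and the other 14 largest falls, like the 15 largest rises, were chosen among called genes whose groups did not overlap, so that separation was fixed by the choice. Fosb, a partner of JUN in the AP-1 dimer, had 53.1 and 51.02 CPM in control against 6.52, 9.998 and 17.5 CPM in ASC-treated libraries. Its highest ASC-treated value, in EV- replicate 1, was under the GN values of 26.3 and 27.2 CPM (log2 fold change -2.25, SE 0.27, adjusted p = 0.000232 by limma). Fos, the founding member of the same family, stood at 3828 and 3174 CPM in control and at 841, 1053 and 1873 CPM after ASC treatment (log2 fold change -1.62, SE 0.21, adjusted p = 0.000665 by limma). For Jund, another AP-1 subunit, the values were 1307 and 1039 CPM against 390.2, 477 and 612 CPM (log2 fold change -1.29, adjusted p = 3.56e-05). Atf3, a stress-induced repressor, went from 157 and 112 CPM to 41.4, 44.6 and 60.1 CPM (log2 fold change -1.4997, adjusted p = 1.83e-05). Hes1, a repressor downstream of Notch, had 135 and 138 CPM in control against 28.7, 35.5 and 41.1 CPM in ASC-treated libraries. Control and ASC-treated values were far apart, each within a narrow range (log2 fold change -1.92, SE 0.10, adjusted p = 1.77e-07 by limma).

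Jun, the central AP-1 subunit, behaved less evenly. It had 748 and 634 CPM in control, and in EV+ replicates 1, 2 and 3 the values were 319, 119.6 and 92.1 CPM. The EV- replicates had 474, 151 and 119 CPM in the same order. Both libraries numbered 1 were therefore far above the other 4, although still under control (log2 fold change -1.96, SE 0.45, adjusted p = 0.0301 by limma). The call was lost without control replicate 1 or 2, with EV- libraries alone, without limma's intensity trend and by DESeq2. Hspa1a, which encodes the inducible heat shock protein HSP70, showed the same spread, with 566 and 619 CPM in control, 285, 98.8 and 73.9 CPM in EV+ and 525, 115 and 112 CPM among EV- libraries (log2 fold change -1.92, SE 0.51, adjusted p = 0.0642 by limma). Its call was lost without either control library, without EV+ replicate 3, with EV- libraries alone, without limma's intensity trend, and by edgeR's quasi-likelihood test and DESeq2. Dnajb1, an HSP40 cochaperone, had 246 and 242 CPM in control, 157, 107 and 107 CPM in EV+ and 227, 106 and 124 CPM among EV- libraries (log2 fold change -0.88, adjusted p = 0.0431), with EV- replicate 1 close to control. Its call was lost in the same settings as that of Jun. Art2b, a surface ADP-ribosyltransferase and also among the 15 largest falls, had 12.1 and 12.2 CPM in control, 7.696, 3.45 and 3.301 CPM in EV+ and 7.34, 3.67 and 3.15 CPM among EV- libraries (log2 fold change -1.26, adjusted p = 0.0331), again highest in both replicates 1, and lost its call without either control library. Of 47 heat shock and DnaJ genes, 4 were called lower (Hspa1a, Dnajb1, Dnajb4 and Hsp90aa1) and 1 higher (Dnajb14), with a median log2 fold change of 0.003. Without either control replicate none was called, and Dnajb14 lost its call also without EV+ replicate 3 or EV- replicate 1.

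Other members called lower act after transcription or in signalling. Zfp36, which encodes tristetraprolin, a protein that speeds the decay of cytokine mRNAs, had 2855 and 2326 CPM in control, 1770.1 and 1598 CPM in GN and 831, 904 and 1186 CPM in ASC-treated libraries (log2 fold change -1.45, SE 0.11, adjusted p = 6.38e-06 by limma). Ppp1r15a, a phosphatase subunit that restores translation after stress, had 1693 and 1279 CPM in control against 536, 585 and 649 CPM after ASC treatment (log2 fold change -1.33, SE 0.10, adjusted p = 6.38e-06 by limma). Gadd45b, a regulator of stress kinases, had 647 and 566 CPM against 275, 318 and 326 CPM (log2 fold change -0.97, adjusted p = 1.26e-05). Dusp1, a phosphatase of MAP kinases, had 7772 and 6558 CPM against 2798, 3261 and 3683 CPM (log2 fold change -1.14, adjusted p = 4.1e-05), and Ier2 had 1386 and 1211 CPM against 679, 731 and 800.2 CPM (log2 fold change -0.82, adjusted p = 1.4e-05). Plk2, a kinase induced by serum, had 77.3 and 39.8 CPM in control against 18.5, 20.8 and 34.02 CPM after ASC treatment (log2 fold change -1.24, adjusted p = 0.00597). Its control values were far apart, and its call was lost without control replicate 1.

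Promoters of 23 of the 31 called members were matched by symbol to RefSeq sequences of the GRCr8 build, from 250 bases before to 50 bases after the start. They were searched on both strands for the cAMP response element (CRE, TGACGTCA), to which CREB binds, and for the CArG box, to which serum response factor binds. A CRE stood in 7 of the 23 and in 3.46% of the 6970 promoters of genes in the table. A CArG box stood in 5 of the 23 and in 1.26% of all. The AP-1 letters TGACTCA occurred in 1 of 23 (3.19% of all), the E-box CACGTG in 5 (9.86%), the interferon element core GAAANNGAA in 1 (7.42%) and the NF-kB site in 5 (9.63%). Shown are the promoters of the 3 called members with the smallest p that held a CRE or a CArG box, in capitals. They are Ppp1r15a at chr1:105139547-105139846 on the minus strand, Zfp36 at chr1:92799059-92799358 on the minus strand and Ier2 at chr19:40399123-40399422 on the plus strand, each read 5′ to 3′ along the gene.
Ppp1r15a: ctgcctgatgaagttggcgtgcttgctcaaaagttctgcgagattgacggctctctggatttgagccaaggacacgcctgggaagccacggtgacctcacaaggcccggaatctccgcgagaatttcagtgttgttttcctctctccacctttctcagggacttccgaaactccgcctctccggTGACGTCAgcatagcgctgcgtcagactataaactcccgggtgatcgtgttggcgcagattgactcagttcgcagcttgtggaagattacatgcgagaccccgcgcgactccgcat
Zfp36: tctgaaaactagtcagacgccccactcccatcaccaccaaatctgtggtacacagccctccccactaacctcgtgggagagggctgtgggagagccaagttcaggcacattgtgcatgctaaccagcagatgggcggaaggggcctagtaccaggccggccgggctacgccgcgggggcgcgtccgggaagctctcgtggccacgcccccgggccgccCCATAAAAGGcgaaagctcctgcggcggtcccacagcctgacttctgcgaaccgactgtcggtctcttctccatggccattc
Ier2: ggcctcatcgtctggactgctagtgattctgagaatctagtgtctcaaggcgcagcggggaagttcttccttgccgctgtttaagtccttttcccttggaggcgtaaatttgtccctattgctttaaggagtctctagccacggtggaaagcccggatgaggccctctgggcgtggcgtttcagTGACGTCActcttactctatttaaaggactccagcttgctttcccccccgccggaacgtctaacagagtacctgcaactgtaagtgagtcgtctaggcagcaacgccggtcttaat
The capitals mark a CRE that began 66 bases before the start in both Ppp1r15a and Ier2, and a CArG box that began 32 bases before the start in Zfp36. These matches describe letters, and no binding was measured.

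Of 34 NF-kB subunits, inhibitors and targets, 11 were called lower and none higher (3 members had an unadjusted p under 0.05 upward, and no other tool called one higher), with a median log2 fold change of -0.31. The share called was 32.4%, against 4.87% of all genes. The count of lower members was 4 without control replicate 1. The subunits themselves did not pass the test: Nfkb1 had a log2 fold change of 0.05 and Rela of 0.05. Ccl3, a chemokine that draws monocytes and T cells, had 825 and 563 CPM in control, 325 and 325 CPM in GN and 169, 208 and 253 CPM in ASC-treated libraries (log2 fold change -1.74, SE 0.14, adjusted p = 1.13e-05 by limma). Cd83, a surface protein of activated antigen-presenting cells, had 162 and 112 CPM in control against 49.5, 59.9 and 80.3 CPM (log2 fold change -1.11, SE 0.12, adjusted p = 7.61e-05 by limma). Its 3 EV+ values (67.8, 80.3 and 78.9 CPM) lay above its 3 EV- values (49.5, 51.1 and 51.9 CPM), a difference that did not pass the test between them (adjusted p = 0.247 by limma, and 0.258 with the replicate block). Pim1, a survival kinase, had 103 and 80.3 CPM against 39.4, 45.1 and 47.4 CPM (log2 fold change -1.03, adjusted p = 0.000148), and Ccrl2, a receptor that presents chemerin, 1068 and 924 CPM against 524, 579 and 639 CPM (log2 fold change -0.77, adjusted p = 7.61e-05). Icam1, an adhesion molecule for leukocyte integrins, fell from 815 and 575 CPM to 439.8, 471 and 499 CPM (log2 fold change -0.54, adjusted p = 0.00779), a call lost without control replicate 1.

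Of 34 chemokines, TNF superfamily ligands and other cytokines, 5 were called lower and none higher (14.7% called, against 4.87% of all genes), with 1 member at an unadjusted p under 0.05 upward and none called higher by the other tools. With the replicate block 8 were called lower. Without control replicate 1 the count of lower members was 2, and without EV+ replicate 2, 1 member was called higher. The 5 were Ccl3, Il10, Il1b, Cxcl10 and Ccl2. Il1b, which encodes the pro-inflammatory cytokine interleukin 1 beta, had 5157 and 3789.7 CPM in control against 2368, 2807 and 3451 CPM after ASC treatment (log2 fold change -0.66, SE 0.13, adjusted p = 0.0109 by limma). The 6 values lay below both controls, and the call was lost without control replicate 1. Il10, the main anti-inflammatory cytokine of macrophages, had 25.2 and 16.99 CPM in control, 12.7 and 14.7 CPM in GN, 11.99, 9.14 and 6.11 CPM in EV+ and 5.200, 4.89 and 6.54 CPM in EV- libraries. It fell in the pooled group (log2 fold change -1.44, SE 0.22, adjusted p = 0.00205 by limma). The call held when each library in turn was left out. Il10 was higher in EV+ than in EV- by a log2 difference of 0.59 (SE 0.22, unadjusted p = 0.0171, adjusted p = 0.994 by limma). By quantitative PCR the study reported enhanced IL-10 expression in M2 macrophages with transferred EVs. Cxcl10, an interferon-induced chemokine, had 32.1 and 21.03 CPM in control against 7.65, 12.3 and 17.2 CPM after ASC treatment (log2 fold change -1.11, adjusted p = 0.0239), and its call was lost without control replicate 1.

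For interferon-response genes the count depended on the fit. Of 46, 4 were called lower (Cxcl10, Rsad2, Oas2 and Mx2) and none higher, with a median log2 fold change of -0.24. The share called was 8.7%, against 4.87% of all genes. No member had an unadjusted p under 0.05 upward or was called higher by another tool. The replicate block, which also joined same-numbered control and ASC-treated libraries from differently treated rats, gave 18 called lower. The number called lower was 12 by edgeR's likelihood-ratio test and 7 by DESeq2, and 20 had an unadjusted p under 0.05 downward. It was 0 without limma's intensity trend or control replicate 1, 1 with the EV+ libraries alone, 2 in a fit of the 8 libraries in 2 groups, 11 without EV+ replicate 1, 7 without EV- replicate 1 and 2 without EV- replicate 2. Mx2, an antiviral GTPase, had 682 and 453 CPM in control against 225, 324 and 454 CPM after ASC treatment. The highest ASC-treated value was above the lower control (log2 fold change -0.82, adjusted p = 0.0707). Rsad2, which encodes viperin, overlapped too, at 77.1 and 42.9 CPM against 27.9, 34.7 and 44.7 CPM (log2 fold change -0.67, adjusted p = 0.0643). Both calls were lost without control replicate 1 or EV- replicate 2, and that of Mx2 also without control replicate 2 or EV+ replicate 3.

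**Figure D2:**
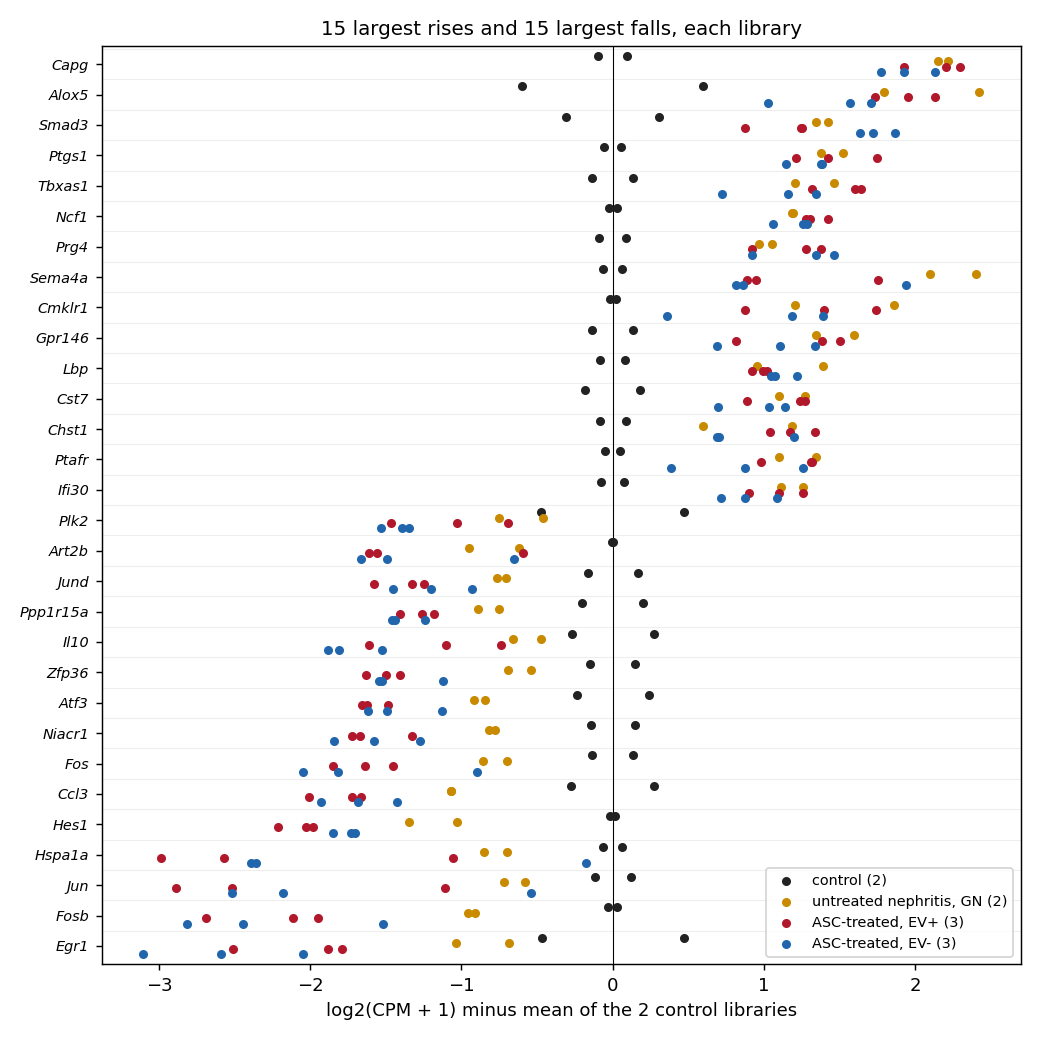
For each of the 15 largest rises (top) and 15 largest falls (bottom) of ASC-treated against control, each point is a library, placed by its log2(CPM + 1) minus the mean of the 2 control libraries (horizontal axis). Control points are black, GN orange, EV+ red and EV- blue. The rises of Capg, Ptgs1 and Ncf1 sit together in GN, EV+ and EV-, while for Hes1, Zfp36 and Egr1 the GN points lie between control and ASC-treated. The genes were chosen with no overlap of control and ASC-treated.

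Ribosomal protein genes were lower by small amounts. Of 80 measured, 18 were called lower and none higher, against 2.53% of all genes called lower. The log2 fold change was negative in 79, with a median of -0.34 over the 80. None had an unadjusted p under 0.05 upward, and 52 lay wholly below both control values (8.83% of all genes). The count of lower members was 0 without control replicate 2, 3 without control replicate 1, 9 without either GN replicate, 42 without EV+ replicate 1, 10 without EV+ replicate 3, 10 without EV- replicate 1 and 7 without EV- replicate 2. Rps7, of the small subunit, had 210.1 and 226 CPM in control, 186 and 188 CPM in GN and 147, 161 and 174 CPM after ASC treatment (log2 fold change -0.44, SE 0.08, adjusted p = 0.00589 by limma). Rpl24, of the large subunit, had 193 and 206 CPM against 123, 148 and 163 CPM (log2 fold change -0.45, adjusted p = 0.0161). Neither gene overlapped between the groups, and both calls were lost without control replicate 2. The genes that assemble ribosomes did not follow: of 61, 1 was called higher (Noc2l, log2 fold change 0.39, adjusted p = 0.0997, and adjusted p = 0.182 once replicate numbers entered as a block) and none lower, with 1 member at an unadjusted p under 0.05 downward and none called lower by the other tools. The call of Noc2l was lost when any library except EV+ replicates 1 and 2 was left out.

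Genes of eicosanoid synthesis were among the largest rises. Of 21 enzymes and receptors of prostanoids and leukotrienes, 5 were called higher and 1 lower, against 2.33% and 2.53% of all genes, with a median log2 fold change of 0.18. The number called higher was 3 without control replicate 2 or without EV+ replicate 3. Alox5, the lipoxygenase that starts leukotriene synthesis, had 16.2 and 6.52 CPM in control, 59.8 and 38.5 CPM in GN and 22.2, 36.5 and 48.8 CPM after ASC treatment. The 2 control values were far apart (log2 fold change 1.69, SE 0.26, adjusted p = 0.00257 by limma). Ptgs1, the constitutive cyclooxygenase, had 30.7 and 28.4 CPM in control against 66.6, 78.4 and 102 CPM in ASC-treated libraries, with 78.3 and 86.7 CPM in GN (log2 fold change 1.38, SE 0.12, adjusted p = 1.83e-05 by limma). Tbxas1, thromboxane synthase, had 33.9 and 41.2 CPM against 62.4, 95.6 and 119 CPM (log2 fold change 1.298, SE 0.15, adjusted p = 0.000148 by limma). The calls of these 3 genes held without any single library. Lta4h, the hydrolase that makes leukotriene B4, had 12.4 and 16.95 CPM against 20.2, 25.1 and 31.2 CPM (log2 fold change 0.76, adjusted p = 0.0526), and its call was lost without either control library and without EV+ replicate 3. Cysltr1, a receptor for cysteinyl leukotrienes, was the other member called higher (log2 fold change 0.93, adjusted p = 0.0672) at a low level of at most 3.43 CPM. The inducible cyclooxygenase Ptgs2 had 10.4 and 5.65 CPM in control against 3.98, 4.57 and 8.25 CPM after ASC treatment (log2 fold change -0.52, adjusted p = 0.34). Ptger4, a receptor for prostaglandin E2, was called lower (log2 fold change -0.40, adjusted p = 0.0886), a call lost with the replicate block and without any one of the control or GN libraries, EV- replicate 1 or EV- replicate 3.

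Capg, which encodes an actin-capping protein of macrophages, had the largest rise of all genes that met the naming rule. It had 93.1 and 81.7 CPM in control, 391 and 410.0 CPM in GN and 300.4, 360.3 and 432 CPM in ASC-treated libraries (log2 fold change 2.04, SE 0.10, adjusted p = 1.73e-07 by limma). The lowest of the 8 nephritic libraries was more than 3-fold above the higher control. Ncf1, the organizer subunit of the NADPH oxidase, had 65.3 and 62.9 CPM in control, 148 and 147 CPM in GN and 135, 157 and 174 CPM after ASC treatment (log2 fold change 1.27, SE 0.08, adjusted p = 7.39e-07 by limma). Smad3, a transducer of TGF-beta signals, was low in control at 2.81 and 1.48 CPM, with 4.65, 6.31 and 6.29 CPM in EV+ and 10.2, 8.56 and 9.14 CPM among EV- libraries (log2 fold change 1.43, SE 0.20, adjusted p = 0.00102 by limma). Each EV- value lay above each EV+ value, with an adjusted p of 0.934 between them. Cst7, an inhibitor of lysosomal cysteine proteases, had 67.7 and 52.5 CPM against 97.1, 128 and 145 CPM (log2 fold change 1.04, adjusted p = 0.000526), and Lbp, a protein that carries bacterial lipopolysaccharide to CD14, 15.6 and 13.9 CPM against 28.8, 31.2 and 35.6 CPM (log2 fold change 1.05, adjusted p = 0.000254). Prg4, a secreted lubricin, had 16.4 and 14.4 CPM against 29.97, 39.7 and 44.2 CPM (log2 fold change 1.22, adjusted p = 0.000441). Sema4a, Gpr146, Chst1 and Ifi30, a lysosomal thiol reductase, completed the 15 largest rises together with the receptors Cmklr1 and Ptafr, at log2 fold changes of 1.202, 1.14, 1.02, 0.99, 1.16 and 1.02. The calls of Sema4a and Cmklr1 were lost without either control library, that of Gpr146 without control replicate 1 and that of Chst1 without control replicate 2.

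Receptors changed in both directions. Of 35 cytokine, chemokine and growth factor receptors, 5 were called higher and 2 lower, with a median log2 fold change of 0.11. The share called was 20%, against 4.87% of all genes. The number called higher was 2 without either control replicate and 3 without EV+ replicate 3. Csf2rb, the signalling chain shared by the receptors for GM-CSF, IL-3 and IL-5, had 142 and 103 CPM in control, 136 and 141 CPM in GN and 221, 237 and 257 CPM after ASC treatment (log2 fold change 0.97, SE 0.10, adjusted p = 7.95e-05 by limma). Its 6 ASC-treated libraries were above all 4 others. Ptafr, the receptor for platelet-activating factor, had 16.6 and 17.9 CPM against 22.9, 38.9 and 44.6 CPM (log2 fold change 1.02, adjusted p = 0.00597). In the other direction, Cxcr4, the receptor for CXCL12, fell from 590.1 and 505 CPM to 303, 328 and 391 CPM, with 310.0 and 301 CPM in GN (log2 fold change -0.68, SE 0.10, adjusted p = 0.00205 by limma). Csf3r, the receptor for G-CSF, had 529 and 528 CPM against 623, 674 and 723 CPM (log2 fold change 0.35, adjusted p = 0.0161), and this call was lost without either control library.

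Genes of uptake and adhesion also went both ways. Of 36 scavenger, phagocytic and complement genes, 3 were called higher and 4 lower (19.4%, against 4.87% of all genes). C2, a complement protease, had 141 and 121 CPM in control, 273 and 227 CPM in GN and 175, 234 and 326 CPM after ASC treatment (log2 fold change 0.89, SE 0.13, adjusted p = 0.00143 by limma). Fcgr3a, a low-affinity receptor for IgG, fell from 2397 and 2675 CPM to 1594, 1827 and 2013 CPM (log2 fold change -0.50, SE 0.07, adjusted p = 0.00197 by limma), whereas Fcgr2b, the inhibitory IgG receptor, was called higher at a low level (at most 5.84 CPM, log2 fold change 1.09, adjusted p = 0.0301). Clec7a, the beta-glucan receptor dectin-1, had 473 and 519.5 CPM against 357, 364 and 413 CPM (log2 fold change -0.41, adjusted p = 0.00617). Of 33 integrin and adhesion genes, 5 were called higher and 3 lower (24.2%, against 4.87% of all genes). Itgam, the CD11b chain that the cells were isolated by together with CD11c, had 418 and 388 CPM in control, 632 and 568 CPM in GN and 478, 570.3 and 641 CPM after ASC treatment (log2 fold change 0.48, adjusted p = 0.00487). Adgre5, the adhesion receptor CD97, had 1034 and 902 CPM against 1189.8, 1252 and 1308 CPM (log2 fold change 0.37, adjusted p = 0.00616). Without control replicate 2 the calls of Clec7a, Itgam and Adgre5 were lost. The adhesion genes called higher then numbered 0, against 2 without control replicate 1. The uptake genes called higher then numbered 1, and those called lower were 1, against 2 without control replicate 1, EV+ replicate 3 or EV- replicate 1. The count of adhesion genes called lower was 0 without control replicate 1, and 1 without control replicate 2 or EV+ replicate 3.

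Some lysosomal genes rose by small amounts. Of 58 hydrolases and proton pump subunits, 9 were called higher and 1 lower (17.2%, against 4.87% of all genes), with a median log2 fold change of 0.09. The number called higher was 1 without control replicate 1, 2 without control replicate 2 and 5 without EV+ replicate 3. Gaa, the lysosomal glucosidase that degrades glycogen, had 48.96 and 48.1 CPM in control, 62.3 and 65.5 CPM in GN and 65.99, 69.4 and 82.4 CPM after ASC treatment (log2 fold change 0.53, SE 0.09, adjusted p = 0.00459 by limma). Gusb, beta-glucuronidase, had 89.9 and 102 CPM against 120.5, 130.5 and 138 CPM (log2 fold change 0.44, adjusted p = 0.00571), and Ctss, the protease cathepsin S, 548 and 510.1 CPM against 603, 647 and 678 CPM (log2 fold change 0.27, adjusted p = 0.0314). Lgmn, the protease legumain, went the other way, from 379.8 and 438 CPM to 297, 322 and 332 CPM (log2 fold change -0.37, adjusted p = 0.0136). No value of these 4 genes overlapped between the groups, but leaving out a control library ended the call of each except Gaa.

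Of 62 genes of exocytosis, 4 were called higher and none lower, with 4 members at an unadjusted p under 0.05 downward, and 1 called lower by DESeq2, with the replicate block and without EV+ replicate 1 or 2. The share called, 6.45%, was near the 4.87% of all genes. From these same libraries the study names Pcsk1, Slc12a2 and Llgl2, all called here, as raised genes of secretion and exocytosis. The count is therefore a description and no independent support. Pcsk1, a proprotein convertase of secretory granules, had 119 and 128 CPM in control, 162 and 189 CPM in GN, 250.2, 261 and 234 CPM in EV+ and 207, 216 and 221 CPM among EV- libraries (log2 fold change 0.90, SE 0.08, adjusted p = 1.4e-05 by limma). Both GN values lay between control and ASC-treated, and the 3 ranges did not overlap. Rab11fip1, an effector of recycling endosomes, had 135 and 125 CPM against 166, 180.4 and 207 CPM (log2 fold change 0.48, adjusted p = 0.00571), and Slc12a2, a sodium, potassium and chloride cotransporter, 12.4 and 9.36 CPM against 15.2, 17.4 and 21.2 CPM (log2 fold change 0.67, adjusted p = 0.0301). Without control replicate 2, Pcsk1 was the sole member called. Of 33 genes of glycolysis and the pentose phosphate path, 3 were called higher and 1 lower (12.1%, against 4.87% of all genes), with a median log2 fold change of 0.15. The number called higher lay between 0, without control replicate 2, and 7, without EV+ replicate 2. It was 1 without control replicate 1, GN replicate 2, EV+ replicate 3 or EV- replicate 1. Eno1, which encodes enolase, had 423 and 408 CPM against 506, 539 and 606 CPM (log2 fold change 0.39, adjusted p = 0.00779), and Pfkp, a phosphofructokinase, fell from 58.6 and 63.8 CPM to 42.96, 44.6 and 49.03 CPM (log2 fold change -0.43, adjusted p = 0.0156). Without control replicate 2 both calls were lost.

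Markers of M2 polarization did not move together. Of 22 measured, 2 were called higher (Ptgs1 and Tgm2) and 4 lower, among them Pparg, Il10 and Cd36, and the median log2 fold change was 0.02. The share called was 27.3%, against 4.87% of all genes. Without control replicate 2, 1 was higher and 2 were lower, and without control replicate 1, 1 was higher. Pparg, a nuclear receptor that senses fatty acids, had 210.2 and 220.1 CPM in control, 145 and 138 CPM in GN and 121, 132 and 147 CPM after ASC treatment (log2 fold change -0.70, SE 0.07, adjusted p = 6.44e-05 by limma). Tgm2, a transglutaminase, had 38.7 and 32.9 CPM against 43.4, 59.2 and 82.3 CPM (log2 fold change 0.69, adjusted p = 0.0383), and its call was lost without either control library. Arg1, the arginase of alternatively activated macrophages, had between 0.272 and 2.92 CPM in all libraries (log2 fold change 0.16, adjusted p = 0.9).

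**Figure D3:**
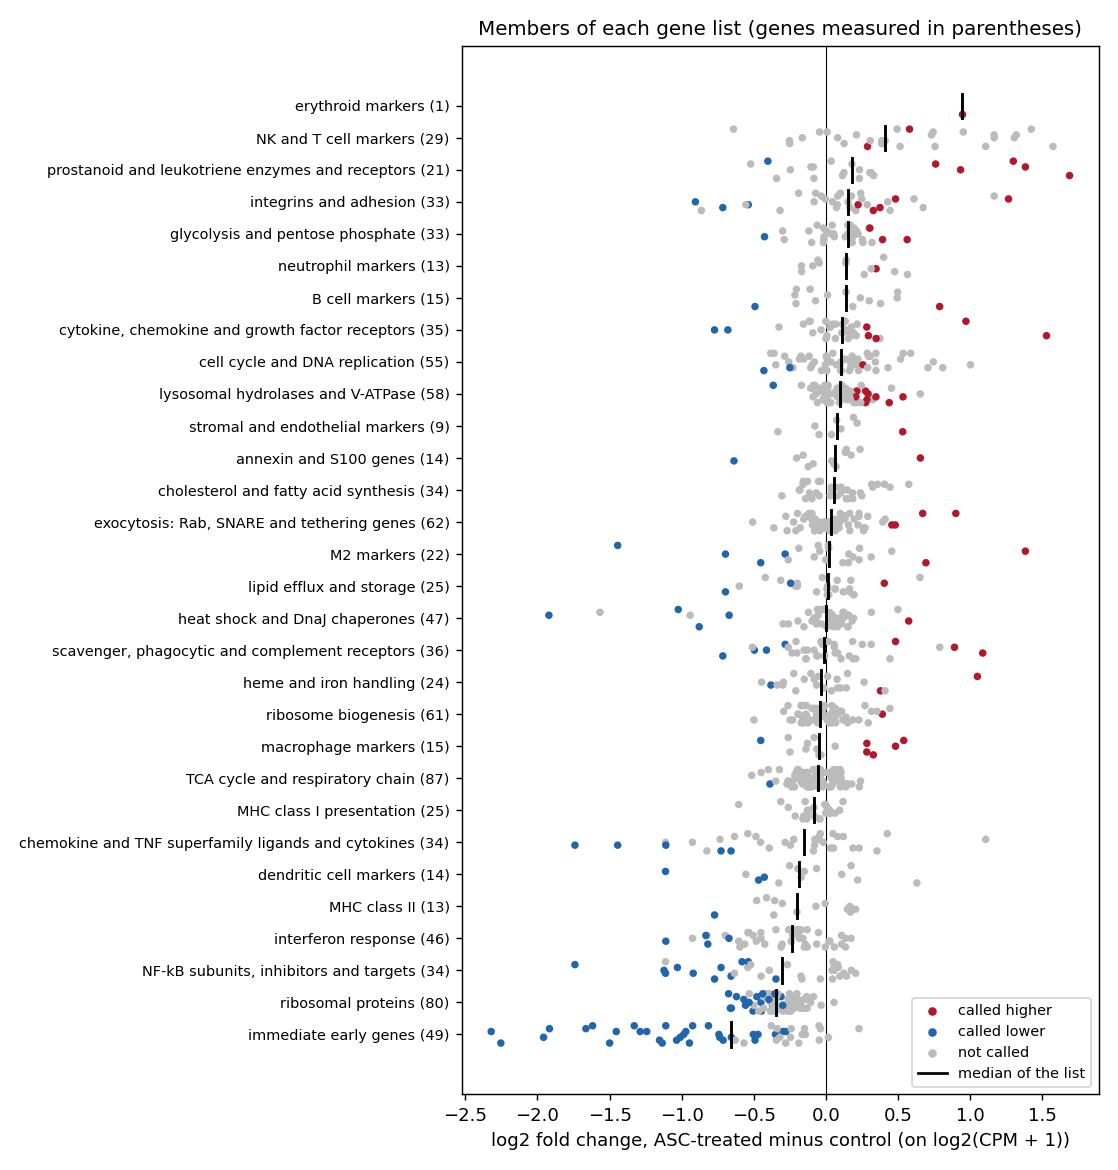
Each row is a gene list, with the number of its genes measured in parentheses, and each point a member, placed by its log2 fold change of ASC-treated against control on log2(CPM + 1) (horizontal axis). Members called higher are red, those called lower blue and the rest grey, and a bar marks the median. The immediate early list has 31 blue points of 49 and the lowest median, -0.66.

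Antigen presentation by MHC class II showed where the choice of reference mattered. Of 13 class II genes, 1 was called lower than control (RT1-DOb, a chain that restrains peptide loading, log2 fold change -0.77, adjusted p = 0.0291) and none higher, by limma or the other tools, and none had an unadjusted p under 0.05 upward. Its call was lost without either control library, and without EV+ replicate 1 or with the replicate block there were 2 lower. RT1-Da, the alpha chain of the RT1-D molecule, had 98.9 and 114 CPM in control, 318 and 282 CPM in GN, 156, 133 and 199.9 CPM in EV+ and 110.1, 64.6 and 97.9 CPM in EV- libraries. Each EV+ value lay above each EV- value (adjusted p = 0.247 between them, and 0.073 with the replicate block), and every ASC-treated value lay below both GN values. Against control its log2 fold change was 0.17 (adjusted p = 0.695). Against GN it was -1.32 (adjusted p = 0.00637). RT1-Ba, RT1-Bb and RT1-Db1 had log2 fold changes of -1.32, -1.36 and -1.300 against GN and of 0.21, 0.17 and 0.15 against control. Cd74, the invariant chain that guards the class II groove, had -0.73 against GN and -0.36 against control (adjusted p = 0.0219 and 0.158). These 5 genes were singled out after their values were seen. In the GN libraries they were higher than in either control library. Against GN none was called without GN replicate 1, and RT1-Da alone without GN replicate 2. The 25 genes of class I presentation had none called (3 lower and none higher at an unadjusted p under 0.05, none by edgeR or DESeq2, but 1 lower with the replicate block or in a fit of the 8 libraries in 2 groups, and 2 lower without EV+ replicate 1), and B2m, the light chain of class I molecules, had 4215 and 4499 CPM against 3272, 4462 and 4918 CPM.

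**Figure D4:**
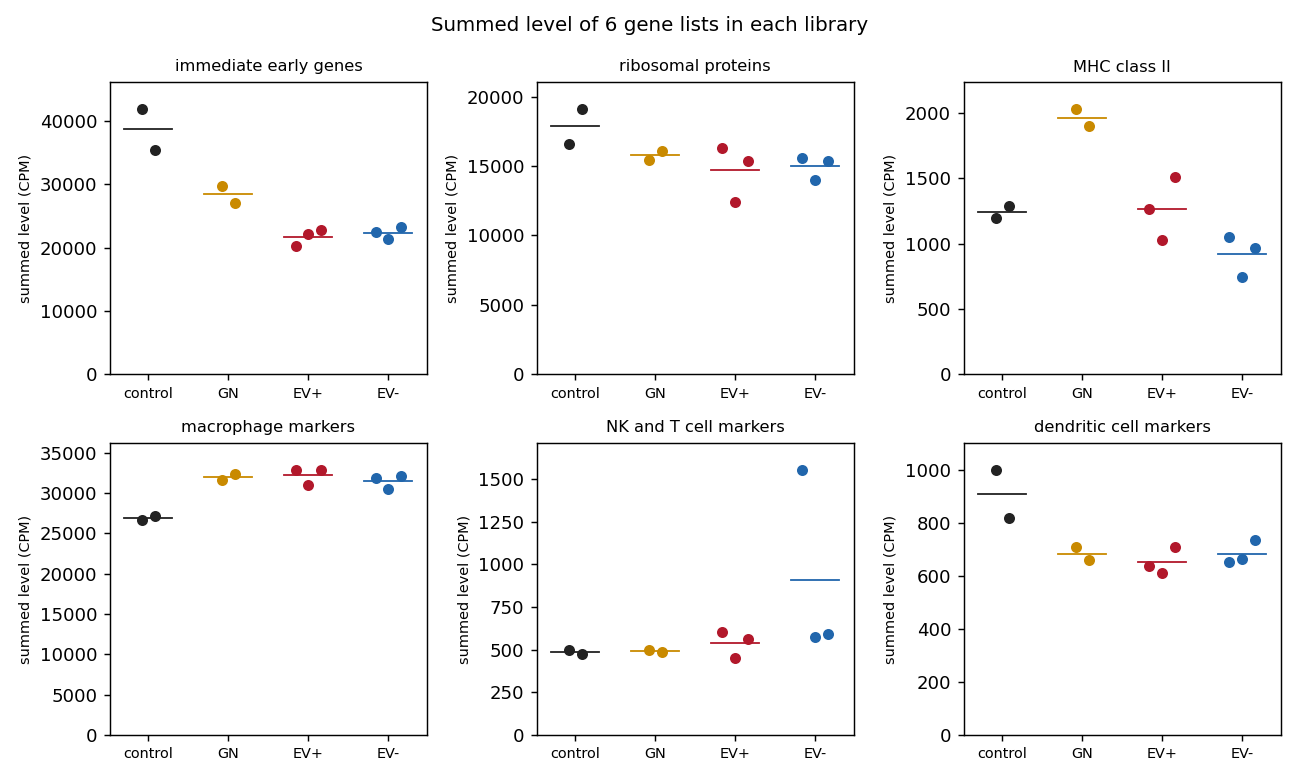
Each panel gives the summed level of a gene list (CPM, from 0) by group. Points are libraries and lines are group means. Immediate early genes run from 35508 to 41954 in control and from 20206 to 23244 in the ASC-treated libraries, MHC class II is highest in GN, and the NK and T cell panel shows EV- replicate 1 at 1554.

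Other groups gave few calls. Against 4.87% of all genes, the shares called were 0% for cholesterol and fatty acid synthesis, 1.15% for the TCA cycle and respiratory chain and 5.45% for the cell cycle. They were 12% for lipid efflux and storage, 12.5% for heme and iron handling and 14.3% for annexin and S100 genes. None of 34 genes of cholesterol and fatty acid synthesis was called (2 higher and 1 lower at an unadjusted p under 0.05, with 1 called higher by edgeR's likelihood-ratio test and 2 by DESeq2). Of 87 genes of the TCA cycle and respiratory chain, 1 was called lower and none higher (3 higher at an unadjusted p under 0.05, and 1 called higher by DESeq2), and of 55 cell cycle genes 1 was higher and 2 were lower. Of 25 genes of lipid efflux and storage, 1 was higher (Lpl) and 2 were lower (Pparg and Plin2). Of 24 genes of heme and iron handling, 2 were higher and 1 lower, and of 14 annexin and S100 genes 1 was higher (Anxa3) and 1 lower (S100a11). Vim, an intermediate filament gene of macrophages and stromal cells, was the sole stromal marker of 9 called. It had 653 and 575 CPM in control, 906 and 891 CPM in GN and 792, 909 and 937 CPM after ASC treatment (log2 fold change 0.53, SE 0.08, adjusted p = 0.00147 by limma). Without control replicate 2, Pparg and Vim were the sole genes of these groups to be called. Without EV+ replicate 1, 3 genes of the TCA cycle and respiratory chain and 4 of iron handling were called lower, and 1 of cholesterol synthesis was called higher. With the replicate block 2 genes each of the TCA and respiratory chain and iron lists were lower, and 2 each of the cell cycle and annexin lists higher.

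Markers of other cells were measured beside these results. Of 29 NK and T cell markers, 2 were called higher, Cd8a and Cd8b, with a median log2 fold change of 0.41 (0.22 without EV- replicate 1). Cd8b lost its call when any library but EV+ replicate 1 or 2 was left out. Cd8a, which rat macrophages also express, had 199 and 201 CPM against 254, 313 and 333 CPM (log2 fold change 0.58, SE 0.10, adjusted p = 0.00608 by limma). In the blocked fit the adjusted p of Cd8b was 0.151 and 1 marker was called lower. The defining T cell gene Cd3e was listed at 0 in both control and both GN libraries and reached at most 2.09 CPM. Dendritic cell markers summed to 1002 and 819.6 CPM in control and to between 613 and 737 CPM in ASC-treated libraries, with 3 of 14 called lower (Cd83, Cadm1 and Id2) and 1 without either control library. Of 15 B cell markers, 1 was higher (Bank1, not without control replicate 1) and 1 lower (Cd79b, not when any control, EV+ or EV- library was left out), and their sum was 974 and 1108 CPM in control and between 900.2 and 1049.7 CPM after ASC treatment. Of 13 neutrophil markers, Csf3r alone was called, and the sum was 708 and 697 CPM in control and between 834 and 887 CPM after ASC treatment. Hbb, the sole erythroid marker measured, had 1.002 and 1.44 CPM against 2.68, 3.06 and 4.75 CPM (log2 fold change 0.94, adjusted p = 0.031), and its call was lost without either control library. The stromal and endothelial markers summed to 789 and 683 CPM in control and to between 887 and 1088 CPM after ASC treatment, mostly Vim. Whether these transcripts had a part in the results above was not tested.

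The GN libraries show where untreated nephritis lay for the same genes. In ASC-treated against GN, which shares the 6 ASC-treated libraries with the comparison above, limma called 38 of 9003 genes (0.422%), 8 higher and 30 lower. Choosing the largest rises and falls by these 6 libraries favours the same direction against GN. Their counts are therefore descriptions and no independent support. Of the 15 largest rises against control, none was called against GN (1 was lower and none higher at an unadjusted p under 0.05, and edgeR and DESeq2 called none). For Capg the values against GN were a log2 fold change of -0.14 (adjusted p = 0.8), and for Ptgs1 -0.07 (adjusted p = 0.925). Of the 15 largest falls, 7 were also called lower than GN: Egr1 (log2 fold change -1.46, adjusted p = 0.0379), Fosb (log2 fold change -1.32, adjusted p = 0.0646), Hes1 (log2 fold change -0.73, adjusted p = 0.00729), Ccl3 (log2 fold change -0.67, adjusted p = 0.0772), Niacr1 (log2 fold change -0.77, adjusted p = 0.0365), Zfp36 (log2 fold change -0.84, adjusted p = 0.00637) and Ppp1r15a (log2 fold change -0.51, adjusted p = 0.0578). Niacr1, the receptor for niacin and ketone bodies, had 172 and 140.3 CPM in control, 87.8 and 90.2 CPM in GN and 42.5, 49.7 and 63.7 CPM after ASC treatment. Of the 49 immediate early genes, 8 were called lower than GN and none higher, with 2 higher at an unadjusted p under 0.05 and none called higher by the other tools. Without GN replicate 1, Hes1 was the sole member of these 8 and of the 7 falls to be called. Without GN replicate 2, Junb and Zfp36 were called of the 8 and Zfp36 of the 7. With the replicate block 12 of the 49 and 10 of the 15 were called. Csf2rb (log2 fold change 0.77, adjusted p = 0.00637) and Pcsk1 (log2 fold change 0.40, adjusted p = 0.0507) were called higher than GN, both not without GN replicate 1 and Pcsk1 not without GN replicate 2. Lpl, lipoprotein lipase, was higher than control and lower than GN, at 40.6 and 36.7 CPM in control, 108 and 76.3 CPM in GN, 66.5, 61.8 and 68.4 CPM in EV+ and 41.2, 41.7 and 38.01 CPM among EV- libraries (log2 fold change 0.40, adjusted p = 0.0894 against control, log2 fold change -0.81, adjusted p = 0.00734 against GN). The EV- values of Lpl lay with control and the EV+ values between control and GN, and the test between EV+ and EV- gave an adjusted p of 0.125 (0.073 with the replicate block). Its call against control was lost when any control, EV+ or EV- library except EV+ replicate 2 was left out. Without GN replicate 1 the count against GN was 3 (1 lower), and without GN replicate 2 it was 13 (12 lower). The call of Lpl against GN was lost without GN replicate 1.

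Between the sorted groups that were pooled, few genes passed the test. By limma EV+ and EV- libraries differed in 2 of 9003 genes (0.0222%), both higher in EV+ (411 at an unadjusted p under 0.05, 57 by edgeR's likelihood-ratio test and 34 by DESeq2), and in 5 in the fit blocked by replicate number, again all higher in EV+. The other 3 were C2, Lpl and RT1-Da (adjusted p = 0.0463, 0.073 and 0.073 in the blocked fit). Without EV+ replicate 1 no gene was called, without EV+ replicate 2 there were 4, without EV- replicate 3 there were 5 (1 higher), and without EV+ replicate 3, EV- replicate 1 or EV- replicate 2 there was 1. The pair called were Pltp, the phospholipid transfer protein, and Plvap, an endothelial diaphragm protein also found on some macrophages. Pltp had 4.31 and 3.46 CPM in control, 17.7 and 12.0 CPM in GN, 9.53, 8.88 and 6.25 CPM in EV+ and 1.94, 2.91 and 2.14 CPM in EV- libraries. Its EV+ values lay above control and its EV- values below, and the pooled log2 fold change against control was 0.17 (adjusted p = 0.761). Plvap had 108 and 81.95 CPM in control, 183 and 163 CPM in GN, 147, 122 and 124 CPM in EV+ and 85.5, 68.1 and 72.3 CPM in EV- libraries. Its pooled log2 fold change against control was 0.07 (adjusted p = 0.822 by limma). For both genes every EV+ and EV- value lay below both GN values. Against the same 2 control libraries, the EV+ libraries alone gave 327 called genes (164 higher) and the EV- libraries alone 256 (116 higher).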

How the data were processed

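Splenic M2 macrophages of control, GN and ASC-treated rats were sequenced as 10 libraries made with SMART-Seq v4 and Nextera XT. Per the labels and the study's Methods, the authors aligned reads with STAR 2.5.3 to rn6, counted RefSeq genes with HTSeq 0.6.0, removed genes whose highest CPM was under 1, and deposited CPM values scaled by TMM in edgeR. The deposited values are thus a normalized signal per gene, read counts divided by the authors' effective library sizes. Strand was not marked by this kit, so overlapping antisense genes cannot be separated, and genes with near-identical copies may share reads. The smallest row maximum in the table was 1.01 CPM. In 18 rows the symbol had been turned into a date, and these rows were tested but not named. Every value was a whole number of reads within 0.05, so reads were recovered for count tests, and TMM values recomputed from them differed by at most 5.35e-05 CPM. The recovered reads summed to 19270515 in the shallowest library and 26617093 in the deepest.

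The groups followed the labels. Because the deposited values were CPM, log2(CPM + 1) was fitted with limma 3.58.1 in R 4.3.3, with an intensity trend, in 1 model of 4 groups over all 10 libraries (6 residual degrees of freedom). ASC-treated was the mean of EV+ and EV-, and genes with a Benjamini-Hochberg adjusted p under 0.1 were called. Fold changes are on this scale, which understates the change of low genes. The study's Methods call the replicates biological, but neither they nor the labels tie each library to a separate rat. The p-values measure the spread between these libraries, part of which may be technical. Gene lists and the members compared were chosen with earlier results of these data known. Named were the 15 largest rises and falls among called genes with a mean of at least 5 CPM, a proper symbol and no overlap between the groups, from each list the 4 called members with the smallest adjusted p (with none called, 2 by smallest p), and Hes1, Zfp36 and Pcsk1, which the study names. Other genes were named after their values were seen, mostly to spell out counts of 5 or fewer, and some genes, left out before the largest changes were ranked, are not reported here.

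Whether replicate numbers pair libraries was checked by correlating deviations from the group means. For EV+ and EV- r was 0.203, 0.295 and 0.122, above the limit of 0.1 set for pairing. For control and GN it was 0.088, the same in both pairs by construction, since each group had 2 libraries. The reported fit had no block and treated the EV+ and EV- libraries as independent. Blocked values are given where a call changed. The block grouped all libraries of the same number, so it also joined control with ASC-treated libraries, which came from differently treated rats. Deviations of control and ASC-treated libraries were not correlated with each other. Alternatives were edgeR 4.0.16 (quasi-likelihood and likelihood-ratio tests) and DESeq2 1.42.0 on the recovered reads, other scalings, pseudocounts and filters, a replicate block, a fit of 8 libraries, EV+ or EV- alone and leaving out each library. Promoters came from RefSeq (GRCr8) by symbol, whereas the reads had been aligned to rn6. Platelet markers and the macrophage markers Marco, Vsig4 and Mertk were not analysed here.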

Additional observations from a re-analysis of the deposited data

Results flagged for a closer look

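In 4 of the 98 named genes, 1 of the 6 ASC-treated libraries stood apart from the other 5 by Dixon's criterion, which compares the gap to the nearest library with the whole range. Both ends were examined in each gene, and chance flags about 1 in 20 groups. Atf3, a stress-induced repressor, had 60.1 CPM in EV- replicate 3 against 41.4 to 46.7 CPM in the others (0.717). Clec7a, which encodes dectin-1, had 413 CPM in EV+ replicate 1 against 357 to 377 CPM (0.64). Gaa, the lysosomal glucosidase, had 82.4 CPM in EV+ replicate 2 against 66.0 to 71.0 CPM (0.691). Ndufa7, a subunit of respiratory complex I, had 33.3 CPM in EV+ replicate 2 against 40.3 to 44.0 CPM (0.655).

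Pltp and Plvap differed between EV+ and EV- libraries by the test of that difference itself, with log2 differences of 1.46 and 0.792 (adjusted p = 0.0394 by limma for each). Their pooled levels were not called against control.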

How the results depend on the processing

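The 438 genes called in ASC-treated against control became 267 without limma's intensity trend, 237 at an adjusted p under 0.05 and 256 with the EV- libraries alone. When 1 library was left out the count lay between 120 and 556. It was lowest without control replicate 2, when 29.2% of calls were upward, against 47.95% in the main fit and 58.4% without control replicate 1. Other tools, scalings, pseudocounts and a filter gave between 398 and 647, fits of 8 libraries 334 and 373, averaged pairs 392 and the EV+ libraries alone 327. Averaging same-numbered EV+ and EV- libraries ended the calls of 8 named genes: Rsad2, Lpl, Llgl2, Noc2l, Hmgb2, Ccnd3, Cd8b and Cd79b. With the replicate block 488 genes were called, 371 of them shared with the 438, and of the named genes Noc2l, Ccnd3 and Cd8b lost their calls (adjusted p = 0.182, 0.136 and 0.151). That block also joined same-numbered control and ASC-treated libraries from differently treated rats. Of the 94 named genes that were called, 35 passed in every alternative and none reversed. The call was lost for 45 without control replicate 1 and for 51 without control replicate 2. The 38 genes against GN became 94 with edgeR's likelihood-ratio test, 87 with DESeq2, 4 without the trend, 23 at an adjusted p under 0.05 and between 3 and 47 when 1 library was left out. The 2 genes between EV+ and EV- became 57, 34, 4 (pseudocount 0.1), 0 (without the trend) and 5 with the replicate block, and lay between 0 and 5 when 1 library was left out. Without EV- replicate 1, list counts against control moved both ways. Members called lower became 13 for NF-kB and 6 for cytokines (from 11 and 5), and 3 for M2 markers (from 4). Members called higher became 7 for lysosomal genes, 4 for receptors and 3 for exocytosis (from 9, 5 and 4). The causes of these shifts were not tested. With 2 control libraries, precision was limited by replicates more than by reads.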
